A study of Homo sapiens with 4 samples.

Results

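The replication-dependent histone genes are the clustered genes that supply the H1, H2A, H2B, H3 and H4 proteins for newly copied DNA. Members were taken by name, as protein-coding genes whose symbol is H1-1 to H1-6 or begins with H2AC, H2BC, H3C or H4C and ends in a number, and 65 of the 62443 genes in the table met this rule. Of these, 63 were matched by their current symbol, and H4C2 and H2AC18 by an older one. They comprised 6 H1, 16 H2A, 16 H2B, 13 H3 and 14 H4 genes, with 52 on chromosome 6, 12 on chromosome 1 and 1 on chromosome 12. H2AC19, H2BC7, H2BC8 and H4C6 were not analysed here.

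RNA was sequenced from HGC-27 cells, an established human gastric cancer line, in 4 libraries. In the GLUP libraries (replicates 1 and 2) the cells had received 10 μg/ml GLUP, a cyclic peptide engineered to bring molecules of the transcription factor TEAD4 together, and the comparison asks which RNAs differ after that treatment. The control libraries (Con, replicates 1 and 2) are labelled as untreated, whereas the methods describe the stocking buffer of the peptide, and the sources give the exposure as 12 h in one place and 48 h in another. All cells came from the same line without any genetic change stated, and the methods call the RNA samples biological replicates without saying how they were separated. The p-values below measure the spread between these libraries.

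Values are FPKM, fragment counts normalised for transcript length and library size, which puts genes of different length on one scale. The number of reads behind them is unknown. Whether the libraries were enriched for poly(A) RNA or depleted of ribosomal RNA is not given in the sources used here. Low RNA and loss of RNA without a poly(A) tail in library preparation therefore cannot be told apart, and levels of the members and of polyadenylated genes are given side by side only. The marker genes of the label were mixed, with VIM at 293 to 387 FPKM, KRT8 and KRT18 at 0.957 to 2.25 FPKM and EPCAM, CDH1 and CDH2 at no more than 0.124 FPKM. Of 4 fibroblast genes, LUM reached 59.0 to 76.7 FPKM, DCN 20.1 to 41.3 and COL1A1 2.97 to 6.90, while PDGFRB stayed at or under 0.198, and the 4 together summed to 97.3 to 105 FPKM in each library. The 4 leukocyte genes and the 2 endothelial genes matched (VWF and CDH5) were at 0.0394 FPKM or less. The part of these marker levels in the results was not tested.

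Cells make most of their histones during S phase, when DNA is copied. The mRNAs of these genes are unusual in that they end in a conserved stem-loop and not in a poly(A) tail. SLBP binds the stem-loop and guides the processing, export, translation and decay of the mRNA, and NPAT switches on transcription of the clusters. A few members also make polyadenylated transcripts that read past the stem-loop. Histone variants such as H3.3 and H2A.Z come from other genes, with ordinary poly(A) tails, and are made throughout the cell cycle.

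The stem-loop is the feature that sets these mRNAs apart, and its letters are shown for members on which the results turn. The search, on the sense strand of annotated transcripts, was for the 16 letters of the histone stem-loop with 3 positions left free, as in the forms given below. Each line gives a member and the stem-loop at the end of its mRNA, with the motif in capitals and up to 5 flanking bases in lower case.
H4C3: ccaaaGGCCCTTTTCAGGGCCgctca
H4C8: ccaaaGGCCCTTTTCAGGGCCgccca
H4C14: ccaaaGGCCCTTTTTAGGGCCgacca
H2BC12: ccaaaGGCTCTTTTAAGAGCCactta
H2AC20: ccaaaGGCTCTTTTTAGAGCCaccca
H1-4: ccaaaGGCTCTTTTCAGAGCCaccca
These lie in the 3′ UTR, in GRCh37 at chr6:26104540-26104565 (H4C3, plus strand), chr6:26285354-26285379 (H4C8, minus), chr1:149804591-149804616 (H4C14, plus), chr6:27114140-27114165 (H2BC12, minus), chr1:149858936-149858961 (H2AC20, plus) and chr6:26157318-26157343 (H1-4, plus). The motif was found in 61 of the 65 members, against 75 of all 64476 genes in the transcript file (0.116%, members included). It took 6 forms, of which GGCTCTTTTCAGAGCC was in 38 members, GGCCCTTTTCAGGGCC in 9, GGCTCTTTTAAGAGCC in 8 and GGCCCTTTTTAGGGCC in 4, with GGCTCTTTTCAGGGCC and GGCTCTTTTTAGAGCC in 1 each. In 59 members it ended within 20 bases of the end of the annotated transcript, most often 5 bases from it. The exceptions were H2AC18, with 285 bases after it, and H2BC21, with 1729. The letters were not in the transcripts of H2AC15, H2BC10, H3C6 and H4C13, which all stayed under the filter described below.

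Upstream sequence is shown for a pair of genes that share a promoter region, H2AC20 and H2BC21, and for H4C14. The 120 bases before each RefSeq start are printed on the gene's own strand (GRCh38.p14), and capitals mark, on either strand, the TATA box letters TATAAA, the CCAAT box letters and the octamer ATTTGCAT (none of the 3 contains another).
H2AC20: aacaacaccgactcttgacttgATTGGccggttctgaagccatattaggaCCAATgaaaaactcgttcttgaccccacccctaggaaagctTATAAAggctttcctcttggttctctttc
H2BC21: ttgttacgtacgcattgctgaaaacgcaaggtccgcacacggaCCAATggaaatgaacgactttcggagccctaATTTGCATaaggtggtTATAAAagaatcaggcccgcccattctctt
H4C14: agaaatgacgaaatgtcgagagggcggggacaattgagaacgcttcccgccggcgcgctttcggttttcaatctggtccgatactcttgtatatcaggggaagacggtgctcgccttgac
The positions are chr1:149886798-149886917 (H2AC20, plus strand), chr1:149886683-149886802 (H2BC21, minus) and chr1:149832537-149832656 (H4C14, plus). H4C15 has the same 120 bases at chr1:149861160-149861279 on the minus strand. RefSeq held an upstream sequence for 60 members. In the 250 bases before the start, TATAAA was in 40 of these 60 (66.7%, against 11.1% of all 27305 genes), CCAAT in 50 (83.3%, against 33.0%) and ATTTGCAT in 24 (40.0%, against 1.66%). The classes differed in these letters. CCAAT was in every H1, H2A, H2B and H3 gene with a sequence but in 2 of 12 H4 genes, and ATTTGCAT was in 11 of 15 H2A and 12 of 16 H2B genes against 1 of 11 H3 genes and in no H1 or H4 gene. The H3 gene was H3C4, for which the RefSeq start used is the same as that of H2AC7, so its letters are those upstream of H2AC7. Paired H2A and H2B genes that point away from each other have starts 194 to 251 bases apart. The 250 bases of 1 gene then reach its partner, so the same letters can count for both. Within the 120 bases nearest the start, the H2A genes with ATTTGCAT were H2AC1, H2AC4, H2AC7 and H2AC17. The H2B genes with it there were H2BC1, H2BC3, H2BC6, H2BC9, H2BC10, H2BC11, H2BC12, H2BC14, H2BC18 and H2BC21.

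Most members had low FPKM. H1-1, H1-6, H2AC1, H2AC15, H2BC1, H4C1 and H4C7 were listed at 0 in all 4 libraries, 12 others were listed at 0 in some, and 46 were above 0 in all. The filter for testing, an average over the 4 libraries of 1 FPKM or more, was reached by 28 members, namely 4 H1, 8 H2A, 5 H2B, 3 H3 and 8 H4 genes, while 37 stayed under it. Just inside the filter were H3C4 (mean 1.02 FPKM) and H4C4 (1.05), and just outside it H3C13 (0.891) and H2AC11 (0.753). The highest value of any member under the filter in a single library was 1.80 FPKM (H3C13, GLUP replicate 1). A member can pass through 1 group or library, so counts over the 28 do not describe all 65.

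H4C3 stood apart from every other member. This H4 gene (ENSG00000197061, GRCh37 chr6:26104161-26104565, plus strand, a single exon of 405 bases) reached 3365 and 8221 FPKM in the controls against 4214 and 4272 FPKM after GLUP. Control replicate 2 was the highest and control replicate 1 the lowest, with both GLUP libraries between them. Among all genes it ranked 42 and 16 in the controls and 36 in both treated libraries, and it held 96.4% to 97.6% of the summed FPKM of the members. The next member in each library was H4C14 in the controls and H2BC12 after GLUP, and H4C3 was 168 to 348 times as high.

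The H4 genes tested encode the same protein, and the canonical transcripts of the class are of similar length (357 to 412 bases), although H4C8, H4C14 and H4C15 also have annotated transcripts of up to 2163, 1549 and 1696 bases, and which length entered their FPKM is not known. As deposited, the 7 other H4 genes tested had means of 15.1 FPKM (H4C14) or less against 5018 FPKM for H4C3. H4C3 shares no run of 50 bases with any other annotated transcript, so reads of such length could be placed. It does lie inside the annotated span of H2BC4 on the opposite strand, and strand was not stated for the counting.

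**Figure D1:**
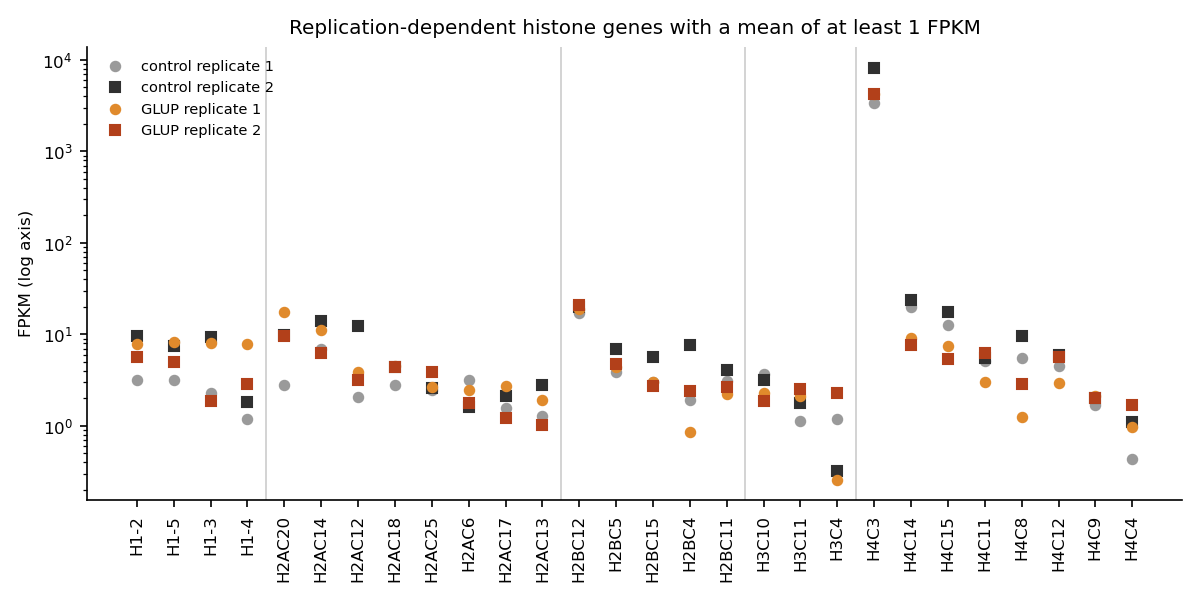
FPKM of the 28 replication-dependent histone genes that passed the filter, on a log axis, grouped by class and ordered by mean, with 1 point for each of the 4 libraries. H4C3 sits between 3365 and 8221 FPKM, and the other members lie at or under 23.6 FPKM in every library.

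Summed over all 65 members, FPKM came to 3489 and 8424 in the controls against 4364 and 4401 after GLUP, a log2 ratio of the group means of −0.44 that became 0.33 without control replicate 2. Without H4C3 the sums were 124, 203, 149 and 130 FPKM in the same order, a log2 ratio of −0.23 that lay within the spread between the controls. By class, the other H4 genes summed to 51.3 and 67.5 FPKM in the controls against 28.4 and 33.5 after GLUP, and these groups did not overlap. H2A genes summed to 24.2 and 52.6 against 49.2 and 34.7 FPKM. H2B genes summed to 30.3 and 46.1 against 30.7 and 35.0 FPKM. H1 genes summed to 9.78 and 28.3 against 32.1 and 15.4 FPKM. For H2A, H2B and H1, the groups overlapped. H3 genes had the lowest sums, at 8.29 and 8.57 against 9.06 and 10.9 FPKM, with the GLUP libraries above both controls. In bulk RNA, a change in the share of cells in S phase and a change of RNA per cell cannot be told apart.

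**Figure D2:**
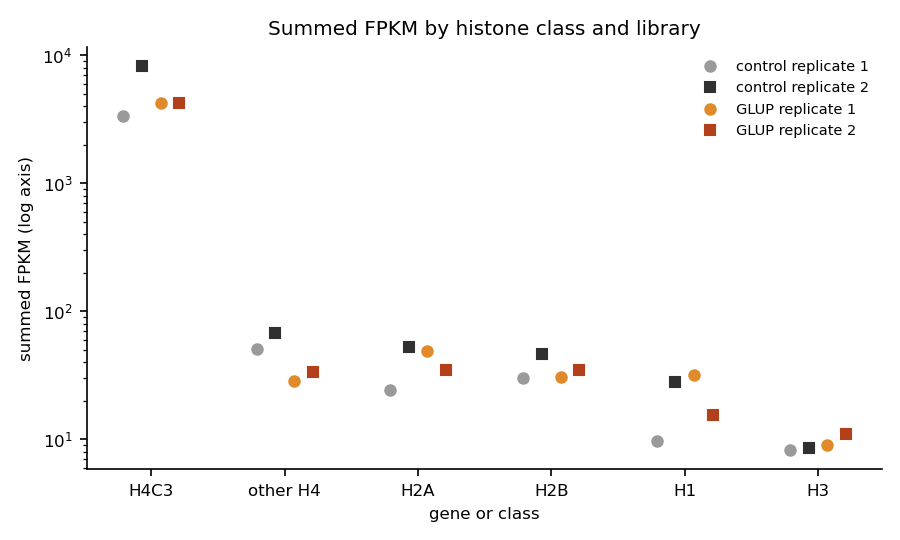
Summed FPKM per library, on a log axis, of H4C3, the other H4 genes and the H2A, H2B, H1 and H3 genes. The 2 GLUP libraries lie below both control libraries for the other H4 genes, at 28.4 and 33.5 against 51.3 and 67.5 FPKM, and H4C3 exceeds every class sum.

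Each member was compared between the groups on the log2(FPKM + 1) scale, which understates the change of low genes. No member passed the test (limma, Benjamini-Hochberg adjusted p under 0.05 over the 7588 genes tested and a fold change over 2), where 0.0264% of all genes tested did, 2 in number. At an unadjusted p under 0.05 with the same fold change, 1 of the 28 was higher after GLUP (background 4.67%) and 3 were lower (background 14.5%). Both GLUP libraries lay above both controls for 5 members (17.9%, background 17.5%) and below both for 5 (17.9%, background 49.7%), and the groups overlapped for 18. Near-ties among those above were H4C9, H2AC18 and H2AC25. Their lower GLUP library was at 2.0396, 4.44 and 2.64 FPKM against 2.0388, 4.40 and 2.61 in the higher control. The fold change was below 0 for 16 members (57.1%, background 66.7%), of which 8, H4C3 among them, turned above 0 once the libraries were centred on their medians. Centring shifts the fold changes of all genes by the same amount, and the background share after it is not given. The median log2 fold change was −0.17, against −0.36 for all genes tested, which is 0.18 above that median.

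GC content moved with the fold change over the whole table, with a Spearman rho of 0.577 across the 7570 genes with a known value, as a description of genes that share libraries. The canonical transcripts of the members are GC-rich, with a median of 58.1% over all members. The median over the longest transcripts of all genes tested was 46.5%, which is not the same measure. The rho and the correction below used the longest transcript of each gene, which for some members is not the canonical one. After a correction of each library along GC content, the median of the members was −0.26 relative to that of all genes, in place of 0.18, and none of the 28 passed the unadjusted rule.

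**Figure D3:**
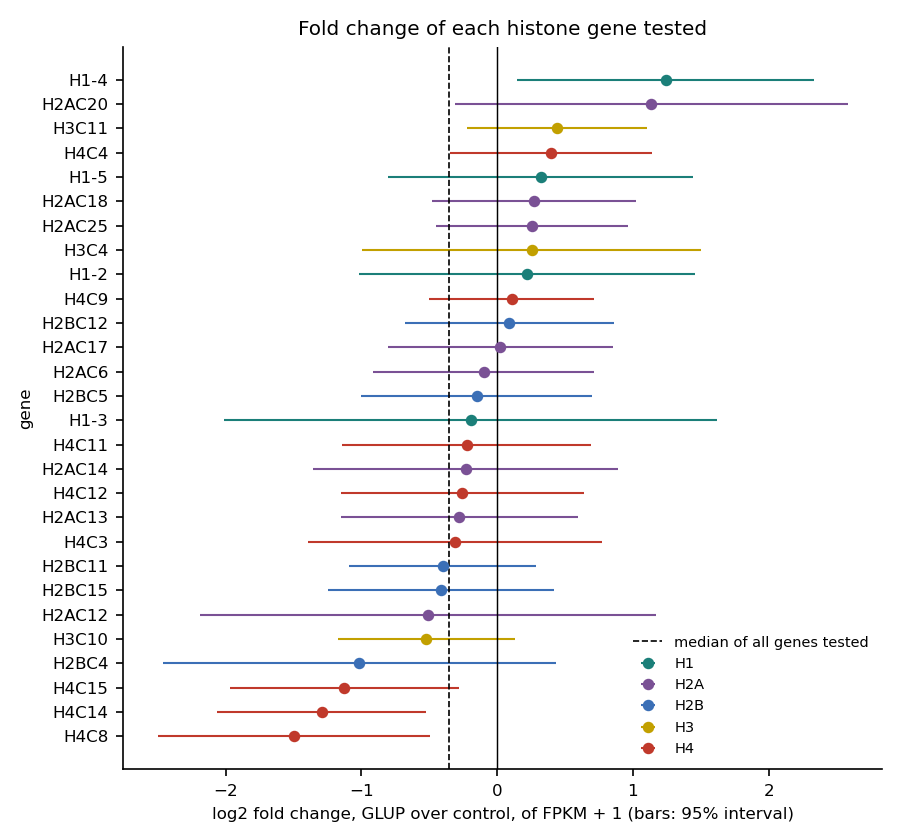
Log2 fold change (GLUP over control, of FPKM + 1) of the 28 members tested, with 95% intervals, coloured by class. The dashed line is the median of all genes tested at −0.36, and the members run from −1.49 (H4C8) to 1.24 (H1-4).

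The lowest fold changes belonged to 3 H4 genes. H4C14 (ENSG00000270882) was at 20.1 and 23.6 FPKM in the controls against 9.07 and 7.62 after GLUP. Its log2 fold change was −1.29 (SE 0.31, adjusted p = 0.10). H4C15 (ENSG00000270276) was at 12.8 and 17.7 against 7.49 and 5.37 FPKM, a log2 fold change of −1.13 (SE 0.34, adjusted p = 0.111). These 2 genes are inverted copies on chromosome 1, and every run of 50 bases in the canonical transcript of one is also in the other, so how reads were split between them is uncertain. Summed, they were at 32.8 and 41.4 against 16.6 and 12.99 FPKM, a log2 ratio of −1.33, with both GLUP libraries below both controls.

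H4C8 (ENSG00000158406), on chromosome 6, was at 5.55 and 9.60 against 1.25 and 2.88 FPKM, a log2 fold change of −1.49 (SE 0.41, adjusted p = 0.103). Its groups did not overlap either. H4C8, H4C14 and H4C15 are the 3 members lower at an unadjusted p under 0.05, at 0.0111, 0.00658 and 0.0173, and all have annotated transcripts with more than 1 exon besides the short histone mRNA. The sign of these 3 held in every alternative tried, but with the GC correction the log2 fold changes of H4C8, H4C14 and H4C15 were −0.94, −0.98 and −0.81, all smaller than 2-fold. That correction used the GC content of their longest transcripts (2163, 1549 and 1696 bases), against 409, 396 and 396 bases for the canonical ones. It cannot tell how these genes would stand with the GC content of the short histone mRNA.

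The other H4 genes did not share this. H4C11 was at 5.09 and 5.51 against 3.01 and 6.26 FPKM, and H4C12 at 4.47 and 5.90 against 2.97 and 5.67. Of the runs of 50 bases in H4C11, 92.1% are also in H4C12. For H4C11 the GLUP libraries lay on either side of both controls, and for H4C12 1 lay below and 1 between them. H4C9 was at 1.70 and 2.04 against 2.14 and 2.04 FPKM (log2 fold change 0.11) and H4C4 at 0.439 and 1.11 against 0.963 and 1.68 (0.40). For H4C3 the log2 fold change was −0.31 (SE 0.44, adjusted p = 0.633, 95% interval −1.40 to 0.78), an interval that holds both a fall and a rise.

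H1 linker histones bind DNA where it enters and leaves the nucleosome, and the highest fold change of any member was that of an H1 gene. H1-4 (ENSG00000168298) was at 1.18 and 1.82 FPKM in the controls against 7.83 and 2.89 after GLUP. Both GLUP libraries were higher, but they differed from each other by more than the controls did (log2 fold change 1.24, SE 0.44, adjusted p = 0.132, unadjusted p = 0.0325). H1-2 was at 3.15 and 9.64 against 7.90 and 5.73 FPKM. H1-5 was at 3.14 and 7.56 against 8.31 and 4.96 FPKM. H1-3 was at 2.31 and 9.26 against 8.04 and 1.86 FPKM. For these 3 genes the groups overlapped, with control replicate 2 and GLUP replicate 1 as the higher library of each group, as they were for H1-4. Their log2 fold changes were 0.22, 0.32 and −0.20, with adjusted p from 0.630 to 0.864. H1-1 and H1-6, which is a testis-specific H1, were at 0.

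Among H2A genes, which with H2B form the outer dimers of the nucleosome core, H2AC20 had the highest fold change. It was at 2.77 and 9.89 against 17.7 and 9.61 FPKM (log2 fold change 1.14, SE 0.58, adjusted p = 0.226), and GLUP replicate 2 fell under control replicate 2. H2AC12 was at 2.08 and 12.3 against 3.91 and 3.14 FPKM, so its control libraries were the lowest and the highest of the 4. H2AC14 was at 6.98 and 14.2 against 11.2 and 6.21 FPKM. The groups did not overlap for H2AC18 (2.84 and 4.40 against 4.56 and 4.44 FPKM) or H2AC25 (2.47 and 2.61 against 2.64 and 3.93 FPKM), both higher after GLUP, with log2 fold changes of 0.27 and 0.26 and adjusted p of 0.541 and 0.539. H2AC6, H2AC13 and H2AC17 had log2 fold changes of −0.10, −0.28 and 0.02, all with overlapping groups.

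H2BC12 had the highest mean of the H2B genes. It was at 17.2 and 20.1 FPKM in the controls against 18.9 and 20.9 after GLUP, a log2 fold change of 0.09 (SE 0.31, adjusted p = 0.853, 95% interval −0.68 to 0.86). The 4 other H2B genes tested had fold changes below 0. H2BC11 was at 3.06 and 4.13 against 2.25 and 2.68 FPKM (−0.40), without overlap. H2BC15 was at 3.02 and 5.61 against 3.02 and 2.72 FPKM (−0.41). H2BC4 was at 1.93 and 7.75 against 0.851 and 2.40 FPKM (−1.01, SE 0.59, adjusted p = 0.265), with overlapping groups, and its annotated span covers H4C3 and other genes, so its value is uncertain. H2BC5 was at 3.86 and 6.99 against 4.44 and 4.78 FPKM (−0.15).

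H3 genes were the lowest class, with 3 of 13 tested. H3C10 was at 3.72 and 3.17 against 2.31 and 1.88 FPKM (log2 fold change −0.52, SE 0.26, adjusted p = 0.220), with both GLUP libraries lower. H3C11 was at 1.15 and 1.80 against 2.13 and 2.55 FPKM (0.44, SE 0.27, adjusted p = 0.281), with both higher. H3C4 was at 1.20 and 0.321 against 0.260 and 2.28 FPKM, and 96.5% of its runs of 50 bases are also in other transcripts. The summed H3 genes of this set reached 10.9 FPKM at most, while the variant gene H3-3B alone was at 1258 FPKM or more in every library.

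Many H2A and H2B genes lie head to head and are transcribed away from a shared region. There were 10 such pairs, with starts 194 to 251 bases apart. In 8 of them the same partner was higher in all 4 libraries, the H2A gene in 5 and the H2B gene in 3. Both partners passed the filter in only 2 of the 10 pairs, H2BC12 with H2AC12 and H2BC4 with H2AC6. H2AC20, at a mean of 9.99 FPKM, faced H2BC21 at 0.0819, across the region printed above, where both carry TATAAA and CCAAT and only the side of H2BC21 carries ATTTGCAT within the bases shown. The canonical transcript of H2BC21 has 2224 bases against 494 for H2AC20, and which length entered the FPKM is not known. H2AC14 (9.64) faced H2BC14 (0.0256), and H2BC15 (3.59) faced H2AC15, which was listed at 0 throughout. H2BC12 (19.3) was above H2AC12 (5.37). The order changed between libraries only for H2BC4 and H2AC6, and H2AC1 and H2BC1 were both at 0.

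Members known from general knowledge to make polyadenylated forms were H2BC4, H2BC5, H2BC12, H2BC21, H2AC6 and H1-2, of which 5 were tested, all with overlapping groups and a median log2 fold change of −0.10. Their levels, up to 20.9 FPKM, did not include that of H4C3. By annotation, 16 members had a transcript of more than 1 exon and 49 had single-exon transcripts only. Of the 9 tested members with such a transcript, 8 had a fold change below 0 (median −0.41), and of the 19 single-exon members 8 did (median 0.09). The background below 0 was 66.7%, and these medians stand beside the −0.36 of all genes tested. The GC correction cannot judge this split, because it used the GC content of the longest transcript of each gene. For H2BC15 that has 4137 bases against 542 in the canonical one, and for H2AC6 1668 against 519. The correction turned H2BC5 (0.17), H2BC15 (0.31) and H2AC6 (0.55) of the members with more than 1 exon above 0. Of the single-exon members it turned H2BC12, H1-2, H1-5, H2AC18, H4C9, H3C11, H2AC17 and H3C4 below 0. Which transcript the reads came from cannot be told from values per gene.

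The control libraries differed from each other for these genes. Control replicate 2 was above control replicate 1 for 25 of the 28 members tested (89.3%, background 46.1%), with a median log2 difference of 0.47 against −0.07 for all genes tested. GLUP replicate 2 was above GLUP replicate 1 for 12 of the 28 (background 43.7%). The controls differed by more than 2-fold in FPKM for 11 of the 28 members, where 30.3% of all genes tested did. The GLUP libraries did so for 7 of the 28, where 6.10% of all genes tested did. Control replicate 2 stood apart in the whole table too. Its Pearson correlation with control replicate 1 was 0.933, whereas control replicate 1 reached 0.952 and 0.957 with the GLUP libraries and the latter 0.986 with one another. Without control replicate 1, the log2 fold changes of H4C8, H4C14, H4C15, H2AC12 and H2BC4 were −1.84, −1.40, −1.35, −1.57 and −1.80. Without control replicate 2, they were −1.15, −1.18, −0.90, 0.55 and −0.22 in the same order. H2AC20 was at 0.37 without control replicate 1 and at 1.90 without control replicate 2. In these fits the lone control is assumed to vary like the GLUP libraries, so only effect sizes are given here.

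Other S-phase genes did not share the order of the controls. Of 20 tested, among them the MCM helicase subunits, PCNA and the enzymes of nucleotide supply, control replicate 2 was above control replicate 1 for 5, with a median log2 difference of −0.44. TK1, the thymidine kinase of S phase, was at 19.2 and 2.07 FPKM in the controls against 49.6 and 42.3 after GLUP. Summed FPKM of the S-phase genes was 319 and 235 against 283 and 266.

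**Figure D4:**
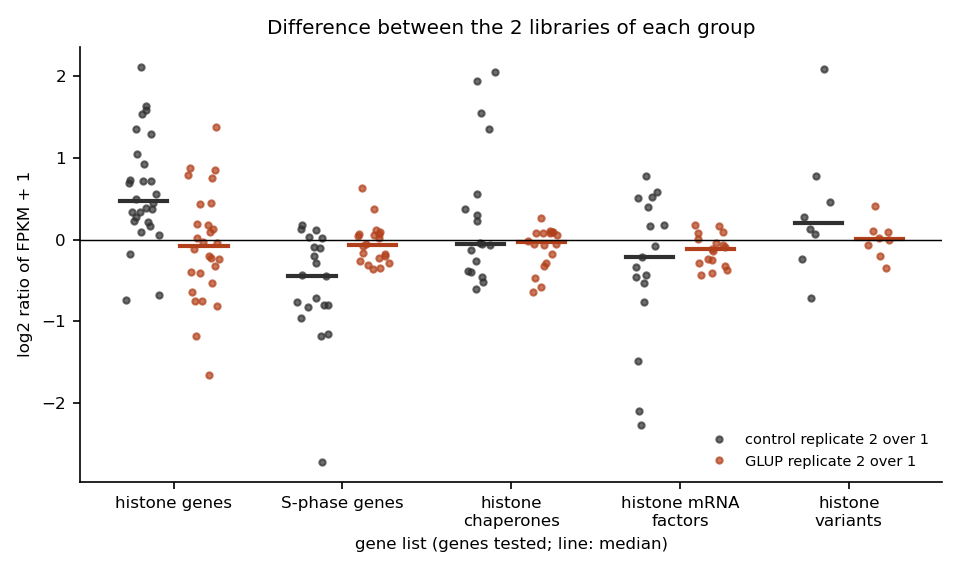
Log2 ratio of FPKM + 1 between replicate 2 and replicate 1, for the 2 control libraries (dark) and the 2 GLUP libraries (red), with 1 point per gene tested and a line at the median of each list. The histone genes have a median of 0.47 between the controls and the S-phase genes −0.44, whereas the medians between the GLUP libraries are −0.08 and −0.07.

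Between the groups, none of the 20 S-phase genes tested passed the test (background 0.0264%), and 10 had a fold change below 0 and 10 above (background 66.7% below 0), with a median of −0.08 against −0.36 for all genes tested. By the unadjusted rule, 3 were higher (background 4.67%) and 2 were lower (background 14.5%). TK1 had a log2 fold change of 2.57 (SE 0.86, adjusted p = 0.122). TYMS, which makes thymidylate, was at 18.8 and 21.4 against 5.58 and 6.03 FPKM (−1.63, SE 0.30, adjusted p = 0.10). These enzymes of thymidylate supply lay on both sides of 0.

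Of the 24 genes for transcription and processing of histone mRNA, 17 were tested and none passed (background 0.0264%), with 10 below 0 and 7 above (background 66.7% below 0) and a median of −0.50 against −0.36 for all genes tested. By the unadjusted rule, 1 was higher (background 4.67%) and 3 were lower (background 14.5%). SLBP, the stem-loop binding protein, was at 4.71 and 6.52 against 2.33 and 1.65 FPKM (−1.14, SE 0.30, adjusted p = 0.101), with both GLUP libraries below both controls. CASP8AP2, a partner of NPAT at histone loci, was at 4.92 and 7.51 against 2.70 and 1.75 FPKM (−1.15, SE 0.33, adjusted p = 0.106). NPAT itself was under the filter, at 0.820 and 1.46 against 0.659 and 0.470 FPKM. SNRPB, an Sm protein of small nuclear RNPs, was at 74.9 and 14.7 against 209 and 171 FPKM (2.46, SE 0.74, adjusted p = 0.110). LSM4, which acts in mRNA decay, was at 33.8 and 7.14 against 5.66 and 6.52 FPKM (−1.25, adjusted p = 0.247), a difference held by control replicate 1 alone.

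Histone chaperones hand new histones to DNA. Of 22 listed, 18 were tested and none passed (background 0.0264%), with 12 below 0 and 6 above (background 66.7% below 0) and a median of −0.41 against −0.36 for all genes tested. By the unadjusted rule, 4 were lower (background 14.5%). ASF1A, which carries H3 and H4, was at 74.2 and 218 against 19.0 and 19.998 FPKM (−2.65, SE 0.55, adjusted p = 0.10). SET was at 628 and 2608 against 335 and 322 FPKM (−1.96, adjusted p = 0.125), and ANP32E, which removes H2A.Z, at 57.9 and 225 against 28.1 and 26.8 FPKM (−2.02, adjusted p = 0.118). For these 3 genes both GLUP libraries were the lowest, and control replicate 2 was again far above control replicate 1.

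Among the replication-independent variants, H2AZ1 and H3-3B reached 1258 FPKM or more in every library, while 6 of the 16 listed were at 0 in all libraries. Of the 16, 8 were tested and none passed (background 0.0264%), with 7 below 0 (background 66.7%) and a median of −0.71 against −0.36 for all genes tested. At an unadjusted p under 0.05 with a fold change over 2, 3 were lower (background 14.5%). H3-3B, which encodes H3.3, was at 3685 and 4033 against 1258 and 1278 FPKM (−1.60, SE 0.25, adjusted p = 0.10), with a smaller gap within each group than between the groups. H3-3A, which encodes the same protein, was at 32.0 and 44.3 against 48.9 and 52.3 FPKM (0.42, adjusted p = 0.407). H2AZ1 was at 12991 and 15733 against 10492 and 11242 FPKM (−0.40, adjusted p = 0.238), above H4C3 in every library.

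H2AZ2 was at 32.1 and 55.8 against 16.7 and 22.5 FPKM (−1.09, adjusted p = 0.139). H2AX and H1-10 were under the filter. H2AX, whose mRNA has a stem-loop form too, was at 0.465 and 0.588 against 1.64 and 1.25 FPKM, and H1-10 at 0.0879 and 0.0861 against 0.188 and 0.211 FPKM.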

How the data were processed

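RNA-seq libraries of HGC-27 cells, 2 GLUP and 2 control, were compared. The authors deposited 1 FPKM value per gene and library. The submitters' processing notes name HISAT2, Cufflinks, RSEM and GRCh38.p10 without their roles, while the gene IDs have the form of GENCODE lifted to GRCh37, so the build is uncertain. Strand and poly(A) selection are not given in the sources used here. Rows of 1 gene were summed (62492 rows, 49 second pseudoautosomal copies), and 99.55% of IDs matched GENCODE names. Members, lists and alternatives were chosen with earlier results of these data known.

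The 7588 genes averaging 1 FPKM or more were tested on log2(FPKM + 1) with limma 3.58.1 in R 4.3.3 (variances moderated along a trend, Benjamini-Hochberg adjustment). With 2 libraries against 2, a two-sided permutation p cannot fall below 0.333, so none was used. In 20 simulations with 200 genes moved by 2 log2 units, an average of 27.4 of these were called beside 1.9 false calls. The simulated libraries all had the same spread and no trend with GC content, unlike these data, so these figures need not hold here. Named genes were the members tested, the polyadenylated-form list, those next to the filter, and from each other list the 3 largest changes and preset genes, some of which are not reported here. Those named outside this rule, chosen after their values were seen, were pair partners. Stem-loops came from GENCODE transcripts, promoters from RefSeq, and shared windows from matches of 50 bases between transcripts. Alternatives were another pseudocount, other filters, centring, quantile normalization, a replicate block, no trend, a GC correction (lowess, span 0.3) and leaving out each library. Sequencing depth is unknown.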

Additional observations from a re-analysis of the deposited data

How the results depend on the processing

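With 2 libraries a group, control replicates that differed and an unknown depth, the test called few genes. The cause was not tested for any change below. No member was called under any alternative that kept all 4 libraries. The signs of 10 of the 28 members held throughout, and over the 43 named genes tested 454 of 540 alternative values kept their sign and their side of the threshold, 55 changed sign and 31 passed the threshold only with a control library left out.

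The replicate numbers do not pair the libraries by any label, and the deviations of libraries with the same number correlated at 0.126. With the replicate block, 2 genes and 0 members were called, and 5 members passed the unadjusted rule in place of 4. With the GC correction and the replicate block together, 16 genes were called, and without the block 0.

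Over all genes, the 2 calls became 1 with a pseudocount of 0.1, with centring and with quantile normalization, and 0 with all genes above 0, a mean of at least 5 FPKM or no mean-variance trend. Leaving out a library gave 4 to 2714 calls. By the unadjusted rule with a fold change over 2, the 1457 genes became 890 at a mean of at least 5 FPKM, 702 with the GC correction, 837 with GC correction and block, and 587 to 2734 without a library. By the same rule, the 4 members became 2 at a mean of at least 5 FPKM, 2 with centring, 0 with the GC correction, with or without the block, and 0 to 5 without a library. The variants went from 3 to 1 with centring or quantile normalization and to 1 to 3 without a library. The processing factors went from 4 to 7 with a pseudocount of 0.1, to 2 at a mean of at least 5 FPKM, to 1 with centring or quantile normalization and to 1 to 5 without a library. The chaperones went from 4 to 1 with the GC correction and to 3 to 7 without a library. The S-phase genes went from 5 to 3 with all genes above 0, to 2 with the GC correction, with or without the block, and to 2 to 5 without a library. No count over all genes by the unadjusted rule is given for centring, quantile normalization, another pseudocount, all genes above 0 or the replicate block. For those settings, a change in a list cannot be told from a shift of the whole table. Adjusted calls without a library moved for every list, as they did for all genes. With 1 library alone in a group, these calls are not counted by list here.

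The median of the members relative to all genes (0.18) became −0.26 with the GC correction, with or without the block, and ran from −0.09 to 0.54 without a library. The log2 ratio of summed FPKM (−0.44) ran from −0.94 to 0.33 without a library, the latter without control replicate 2, and was −0.23 without H4C3, an alternative added after seeing the data.

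Centring on the median turned the log2 fold change above 0 for H4C3 (0.033), H2AC14 (0.11), H1-3 (0.15), H2BC5 (0.19), H4C11 (0.12), H4C12 (0.087), H2AC6 (0.24) and H2AC13 (0.066). Quantile normalization did so for H2AC14 (0.13), H1-3 (0.14), H2BC5 (0.23), H4C11 (0.13), H4C12 (0.10) and H2AC6 (0.16). The GC correction, with or without the replicate block, turned H2BC12 (−0.32), H1-2 (−0.089), H1-5 (−0.061), H2AC18 (−0.23), H4C9 (−0.36), H3C11 (−0.021), H2AC17 (−0.38) and H3C4 (−0.17) below 0 and H2BC5 (0.17), H2BC15 (0.31) and H2AC6 (0.55) above it. Without a library, the log2 fold change ran from −0.95 to 0.33 for H4C3, −0.016 to 0.20 for H2BC12, −0.70 to 0.23 for H2AC14, −0.46 to 0.90 for H1-2, −0.20 to 0.85 for H1-5, −1.57 to 0.55 for H2AC12, −1.02 to 0.63 for H1-3, −0.51 to 0.21 for H2BC5, −0.65 to 0.21 for H4C11, −0.63 to 0.12 for H4C12, −0.44 to 0.24 for H2AC6, −0.35 to 0.40 for H2AC17, −0.64 to 0.085 for H2AC13 and −0.44 to 0.94 for H3C4.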
